A study of Homo sapiens with 52 samples.

Results

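The genes described here are 10 receptor tyrosine kinases with links to neuropilin 1 (NRP1), a co-receptor at the cell surface: MET, PDGFRA, PDGFRB, FGFR1, EGFR, ERBB2, ERBB3, AXL, IGF1R and EPHA2. They were taken by gene name from the gene-level tables, where each name matched 1 row, so that 10 of the 78894 genes in the tables are described. In GRCh38 they lie on 9 chromosomes: EPHA2 at chr1:16124337-16156069 (minus strand), PDGFRA at chr4:54229280-54298245 (plus), PDGFRB at chr5:150113839-150155872 (minus), EGFR at chr7:55019017-55211628 (plus), MET at chr7:116672196-116798377 (plus), FGFR1 on chromosome 8 (minus), ERBB3 at chr12:56076799-56103505 (plus), IGF1R at chr15:98648539-98964530 (plus), ERBB2 at chr17:39687914-39730426 (plus) and AXL at chr19:41219223-41261766 (plus). The measurements are bulk RNA-seq of 52 libraries in 18 groups, made from 3 human claudin-low breast cancer cell lines, SUM159PT, MDA-MB-231 and HS578T. Each line was given 6 treatments. The siRNA arm used reverse transfection at 20 nM with a control siRNA that targets no gene (siNT), siNRP1#3 or siNRP1#5, and RNA was taken at 72 hrs. The shRNA arm used lentiviral hairpins, either without a target (shNT) or as shNRP1#3 and shNRP1#5, followed by puromycin selection, and RNA was taken 48 hrs after seeding. The #3 siRNA and the #3 hairpin were both designed against the transmembrane form of NRP1 only, and #5 against the transmembrane and the soluble forms. The siRNA and the hairpin of #5 share 1 sequence, while the study's methods give #3 a different sequence in each arm. The siRNA cultures carry no engineered change, every shRNA culture carries a transduced hairpin and went through puromycin selection, and each cell line is a single line, so a difference between lines is a difference between 3 cultures of origin. Of the groups, 16 hold 3 libraries and 2 hold 2, namely siNRP1#5 in SUM159PT (numbered 2 and 3) and shNRP1#3 in HS578T (numbered 1 and 2). The study's methods call the replicates independent, and the shRNA replicates are consecutive passages of 1 transduced culture, so their p-values measure the spread between passages.

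Receptor tyrosine kinases span the membrane once, bind a growth factor outside the cell, pair up and phosphorylate one another inside it, which starts the RAS-MAPK and PI3K-AKT cascades. NRP1 has no kinase of its own. It is best known as a co-receptor for VEGF and class 3 semaphorins, and it can also bind other growth factors and associate with several kinase receptors, among them MET and the PDGF receptors. In breast cancer EGFR and ERBB2 are drug targets, and MET, AXL and EPHA2 are studied for their part in motility, invasion and resistance to other kinase inhibitors.

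MET passed as higher in more siRNA comparisons than any other of the 10, and EGFR was among the receptors that passed as lower, so the bases just upstream of the start sites of these genes, both on chromosome 7, are shown. Of the 10 genes, 8 have an entry in RefSeq's promoter windows for GRCh38.p14 (250 bases before to 50 after a start). FGFR1 and ERBB3 have none. The stretches below cover the 250 bases before the start at chr7:116671946-116672195 (plus strand, MET) and chr7:55018767-55019016 (plus strand, EGFR), written 5′ to 3′, with each GGGCGG motif of either strand (CCGCCC when read on the other) in capitals.
MET: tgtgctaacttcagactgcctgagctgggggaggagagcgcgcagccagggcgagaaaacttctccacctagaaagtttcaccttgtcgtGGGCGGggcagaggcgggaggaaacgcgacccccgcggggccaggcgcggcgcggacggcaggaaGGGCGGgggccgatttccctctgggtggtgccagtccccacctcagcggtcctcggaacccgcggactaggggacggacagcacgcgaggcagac
EGFR: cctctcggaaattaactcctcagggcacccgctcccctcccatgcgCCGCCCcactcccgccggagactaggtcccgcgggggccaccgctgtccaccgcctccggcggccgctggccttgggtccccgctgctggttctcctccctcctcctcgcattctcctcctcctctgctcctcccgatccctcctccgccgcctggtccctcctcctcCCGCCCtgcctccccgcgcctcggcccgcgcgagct
Each stretch holds 2 such motifs. GC makes up 68.4% of the MET bases and 73.6% of the EGFR bases. In the whole windows, with the 50 bases after the start, GC makes up 69.3% (MET) and 75.3% (EGFR), beside a median of 58.7% over all windows. Each of these 2 whole windows holds 3 motifs. Some 45% of 35116 RefSeq windows hold at least 1 GGGCGG, so its presence in both is common. In EGFR, a second annotated start (window chr7:55109589-55109888) has a GC share of 42% and holds 2 TATAAA and 2 TGANTCA motifs, against 11.5% and 7.71% of all windows with at least 1. These are matches of letters, and binding to them was not measured.

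Totals ran from 25310443 to 72003442 estimated reads per library (median 44804505). The targeted gene NRP1, in counts scaled by library size (CPM), had 248, 144 and 230 in SUM159PT siNT, 56, 30.1 and 59 in siNRP1#3 and 7.15 and 13.5 in siNRP1#5, and 266, 234 and 203 in shNT, 128, 79.2 and 74.2 in shNRP1#3 and 51.2, 40.4 and 47.9 in shNRP1#5. In MDA-MB-231 the same groups had 63, 72.5 and 85.8, then 40, 47.3 and 46.9, then 3.21, 2.29 and 1.85 CPM by siRNA, and 187, 173 and 170.1, then 58.7, 62.6 and 68.9, then 75.5, 90.1 and 89.1 CPM by shRNA. In HS578T they had 118, 101 and 127, then 42.7, 52.8 and 54.6, then 11.3, 17.2 and 26.2 CPM by siRNA, and 129, 126 and 165, then 47.4 and 47.6, then 27.9, 33.6 and 38.2 CPM by shRNA. Every knockdown library lay below every library of its control. NRP1 passed as lower in 11 of the 12 comparisons by the quasi-likelihood test of edgeR, its p-values adjusted by Benjamini-Hochberg over all genes, with log2 fold changes from -0.70 (MDA-MB-231 siNRP1#3) to -4.88 (MDA-MB-231 siNRP1#5). The exception, HS578T shNRP1#3 with 2 libraries, stood at 33.3% of control (edgeR adjusted p = 0.069). On TPM, a level corrected for transcript length and library size, limma called NRP1 lower in 8 of the 12. MDA-MB-231 siNRP1#3 was then level with its control, at 28.5 ± 3.36 TPM beside 28.8 ± 3.03 in siNT (SD, n = 3, a log2 difference of -0.017, limma adjusted p = 0.965). SUM159PT shNRP1#3 (limma adjusted p = 0.226), HS578T siNRP1#3 (0.387) and HS578T shNRP1#3 (0.315) did not pass on TPM either.

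Claudins 3, 4 and 7 are low in claudin-low cells by definition. SUM159PT and HS578T had medians of CLDN3, CLDN4 and CLDN7 of at most 1.02 TPM. MDA-MB-231 did not: CLDN4 ran from 62.6 to 226 TPM and EPCAM from 17.6 to 35.2 TPM in its 18 libraries. Its CDH1, another gene low in claudin-low cells, had a median of 0.405 TPM. For genes enriched in such cells its medians were 2496 TPM (VIM), 13.01 (ZEB1), 7.415 (SNAI1) and 97.1 (ITGA6). Transcripts particular to another line were found in some libraries. By genes at most 0.5 CPM in the controls of the host line and at least 20 CPM in those of the source line, the 3 HS578T siNRP1#5 libraries held 26.0, 16.7 and 13.4% of the MDA-MB-231 level (replicate 2 also 5.43% of the SUM159PT level), HS578T siNRP1#3 replicate 3 held 7.17%, and MDA-MB-231 shNRP1#3 replicate 3 held 1.43% of the HS578T and 1.18% of the SUM159PT level. Values without those libraries, or with the transcripts of other lines subtracted at their control level, are given for the results that rest on them. In bulk RNA, fewer cells of a kind and less RNA per cell cannot be told apart.

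In the non-targeting controls AXL, the receptor for GAS6, was the highest of the 10 in every line. Its mean in SUM159PT was 84.6 ± 31.6 TPM (SD, n = 6, siNT and shNT together), beside 334 ± 33.9 in the MDA-MB-231 and 260.5 ± 45.4 in the HS578T controls. EPHA2, a receptor for ephrin-A ligands on neighbouring cells, came next in MDA-MB-231 with 171 ± 21.4 TPM and stood at 59.9 ± 7.32 in SUM159PT and 30.1 ± 12.5 in HS578T. FGFR1, a receptor for fibroblast growth factors, was even across the lines at 60.1 ± 8.37, 58.6 ± 6.63 and 40.4 ± 12.5 TPM in that order. The order of the other receptors depended on the line.

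PDGFRA and PDGFRB are the PDGF receptors typical of mesenchymal cells. PDGFRA stood at 51.5 ± 21 TPM in HS578T and 21.6 ± 7.04 in SUM159PT, but at 0.143 ± 0.217 in MDA-MB-231, where 1 siNT library had no read at all. PDGFRB ran in the same order, with 47.6 ± 17.7 TPM in HS578T, 15 ± 5.76 in SUM159PT and 5.23 ± 2.23 in MDA-MB-231. IGF1R, the receptor for insulin-like growth factors, was highest in SUM159PT and lowest in HS578T, with 12.9 ± 5.02 TPM in the first, 1.89 ± 0.949 in the last and 8.94 ± 3.64 in MDA-MB-231. Among the ERBB family, EGFR stood at 12.3 ± 2.52, 26.5 ± 8.47 and 13.4 ± 2.92 TPM and ERBB2 at 33.3 ± 5.78, 39 ± 7.63 and 17.6 ± 3.45 TPM in the 3 lines in that order. ERBB3, which has little kinase activity and signals by pairing with EGFR or ERBB2, was low throughout, at 0.508 ± 0.415, 2.62 ± 1.54 and 1.32 ± 0.527 TPM. MET, the receptor for hepatocyte growth factor, was at 12.2 ± 9.18, 14.2 ± 8.3 and 9.5 ± 8.37 TPM, a wide spread in each.

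**Figure D1:**
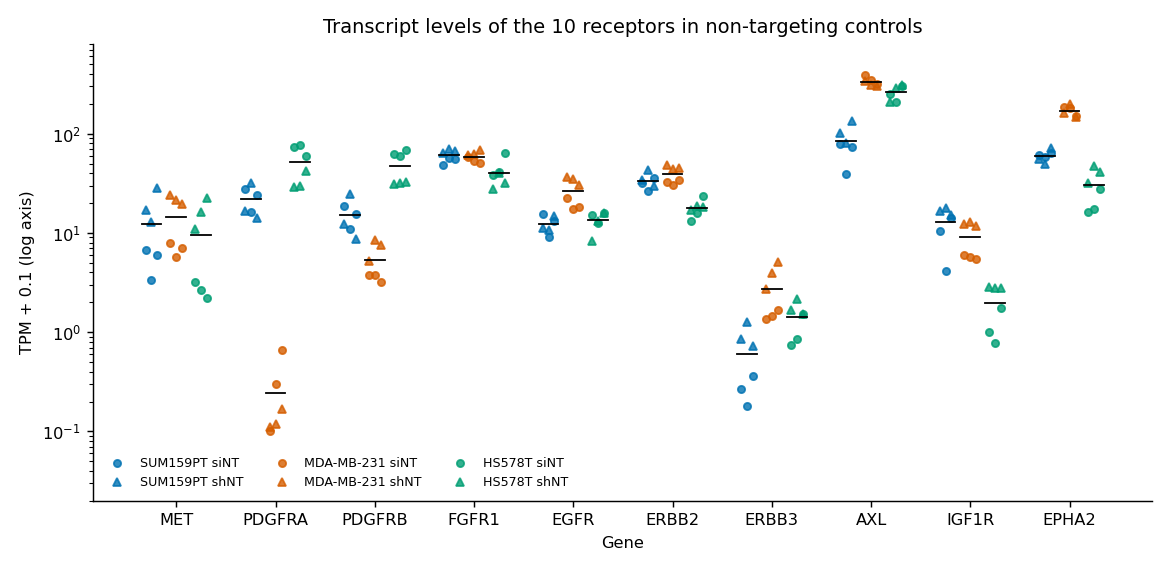
Levels of the 10 receptors in the non-targeting control libraries, as TPM + 0.1 on a log axis, with 1 point per library (circles siNT, triangles shNT), colours for the 3 cell lines and a black bar at the mean of the 6 control libraries of a line. PDGFRA in MDA-MB-231 has the lowest mean of all, AXL is at the top in every line, and for MET the triangles lie above the circles in all 3 lines.

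On the scale of counts, edgeR's quasi-likelihood test called 6 of the 10 receptors between MDA-MB-231 and SUM159PT (59.4% of all genes tested), 7 between HS578T and SUM159PT (63.5%) and 8 between HS578T and MDA-MB-231 (70.2%), shares close to those of all genes. PDGFRA differed most, with a log2 difference ± SE of 10.40 ± 0.703, edgeR adjusted p = 1.01e-15 between HS578T and MDA-MB-231, a fitted size that moves with the setting (up to 14.56 with other lines subtracted) because MDA-MB-231 is near 0. PDGFRB was higher in HS578T than in SUM159PT (2.01 ± 0.282, edgeR adjusted p = 8.18e-08), and IGF1R was lower (-2.52 ± 0.172, edgeR adjusted p = 3.19e-16). AXL was higher in MDA-MB-231 than in SUM159PT (1.62 ± 0.179, edgeR adjusted p = 2.39e-10), EPHA2 likewise (1.09 ± 0.196, edgeR adjusted p = 7.12e-06), and ERBB3 by 3.22 ± 0.286, edgeR adjusted p = 6.72e-13. MET and FGFR1 were the 2 that passed in none of the 3 line comparisons. The control libraries of a line mix siNT and shNT, and for MET those differ, as described further on.

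Among transcripts, MET-202 made up between 83.9% and 90.3% of MET, EPHA2-201 between 88.6% and 91.9% of EPHA2, and AXL-201 between 64.3% and 72.5% of AXL in the controls of the 3 lines, as RSEM's isoform percent. EGFR-201, the full-length form, held 56.1 ± 12.2% of EGFR in SUM159PT (SD, n = 6), beside 44.7 ± 4.27% for MDA-MB-231 and 39.4 ± 18.7% for HS578T. FGFR1 was spread over 58 annotated transcripts, none above 13.6%, and its protein-coding forms made up between 42.2% and 48.3% of its TPM. For IGF1R the coding share was 44.9 ± 20.8% in SUM159PT and 71.5 ± 11.6% in MDA-MB-231. Shares of similar transcripts of 1 gene are estimates, and the transcript mix enters a gene's TPM through its length, so differences below are given on counts (normalised CPM), and the calls of a knockdown, between sequences or between controls that limma on TPM did not make are named beside them.

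Over the 12 knockdown comparisons and 10 receptors, 23 of 120 tests passed, and the siRNA and shRNA arms differed in number. In the siRNA arm 20 of 60 passed, 7 higher and 13 lower. By shRNA 3 of 60 passed, all lower and all in MDA-MB-231 shNRP1#5. Taking the comparisons in turn, in SUM159PT siNRP1#3 called 4 of the 10 (8.66% of all genes tested), siNRP1#5 called 2 (17.9%), and shNRP1#3 and shNRP1#5 called 0 by edgeR (1.4% and 5.94%). In MDA-MB-231 siNRP1#3 called 6 (25.7%), siNRP1#5 called 4 (29.4%), shNRP1#3 called 0 (3.65%) and shNRP1#5 called 3 (20.7%). In HS578T siNRP1#3 called 2 (4.65%), siNRP1#5 called 2 (18.7%), and shNRP1#3 and shNRP1#5 called 0 (0.0356% and 0.946%). Of the 5 comparisons with 0 calls, SUM159PT shNRP1#3 held 5 receptors at an unadjusted p under 0.05 (2520 of all 20067 genes tested). At that level SUM159PT shNRP1#5 held 1 (3730 of 20067 genes) and MDA-MB-231 shNRP1#3 held 3 (3147 of 18800). HS578T shNRP1#3 held 3 (1349 of 19661) and HS578T shNRP1#5 held 2 (3777 of 19661). DESeq2 called 3, 0, 3, 0 and 1 of the 10 receptors in that order, and limma on TPM called 0 in each. Shares over all genes are not given for these 2 tools. Of the 23 calls, 13 were kept when each of their own libraries was left out in turn. The others are named gene by gene, each with the libraries it needs.

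**Figure D2:**
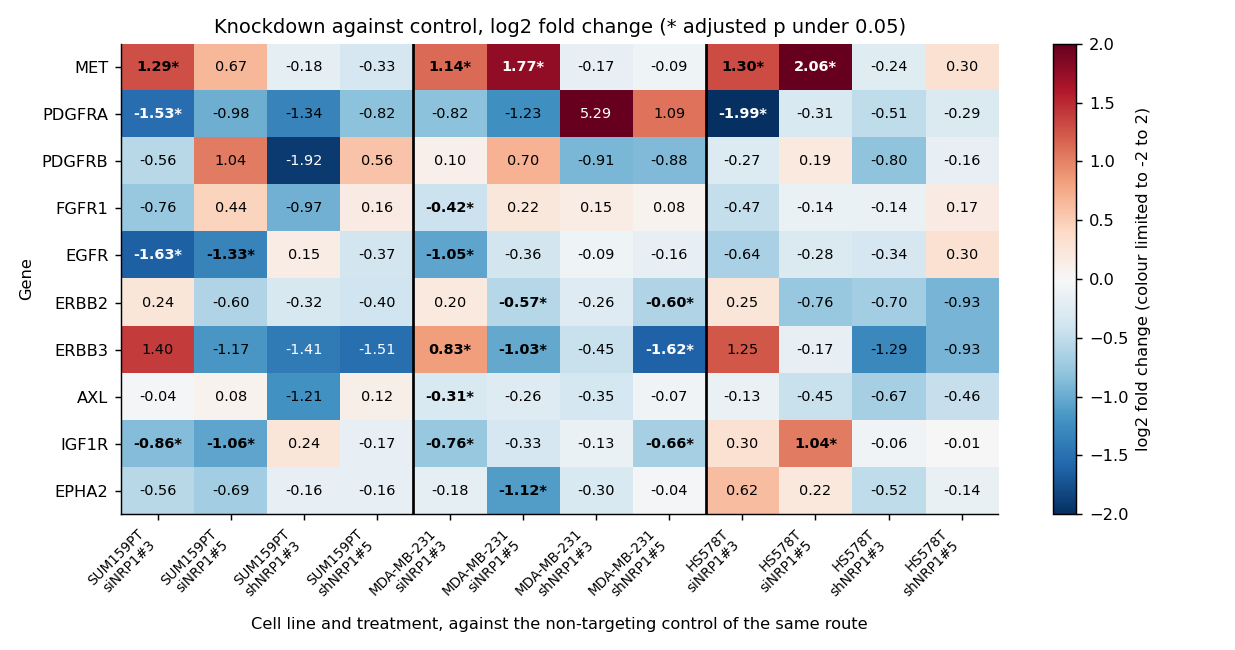
log2 fold change of each of the 10 receptors (rows) in the 12 knockdown comparisons (columns), with red for higher and blue for lower than the non-targeting control of the same arm, colours limited to −2 to 2, and stars for the 23 tests with an edgeR adjusted p under 0.05. MET is starred as higher in 5 of its 6 siRNA columns and EGFR as lower in 3, and the stars in shRNA columns are those of ERBB2, ERBB3 and IGF1R in MDA-MB-231 shNRP1#5.

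MET rose in 5 of 6 siRNA comparisons and in no shRNA comparison. In SUM159PT the siNT libraries had 35.6, 21.4 and 29.1 CPM, the siNRP1#3 libraries 71, 60.2 and 78.7 and the siNRP1#5 libraries 36.6 and 53.8. Both knockdown groups lay above siNT, with a log2 fold change ± SE of 1.29 ± 0.334, edgeR adjusted p = 0.0238 for siNRP1#3 and 0.67 ± 0.364, edgeR adjusted p = 0.213 for siNRP1#5, which did not pass. In MDA-MB-231 the values were 32.8, 25.1 and 30.1 CPM in siNT, 63.6, 61.5 and 65.7 in siNRP1#3 and 133, 85.6 and 78.6 in siNRP1#5. The 3 groups did not overlap, and the log2 fold changes were 1.14 ± 0.166, edgeR adjusted p = 7.01e-05 for siNRP1#3 and 1.77 ± 0.169, edgeR adjusted p = 2.9e-07 for siNRP1#5. In HS578T the values were 18.6, 18.6 and 16.6 CPM in siNT, 36.1, 53.1 and 43.7 in siNRP1#3 and 59, 67 and 98.6 in siNRP1#5. Again every knockdown library lay above every siNT library, with 1.304 ± 0.338, edgeR adjusted p = 0.0367 for siNRP1#3 and 2.06 ± 0.345, edgeR adjusted p = 0.000981 for siNRP1#5.

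Both MDA-MB-231 calls and the HS578T siNRP1#5 call for MET held under every alternative that gave them a value. For HS578T siNRP1#5, MDA-MB-231 transcripts at their control level would account for 14.6, 9.33 and 7.52 CPM of the 59.0, 67.0 and 98.6 CPM measured. MET was higher in MDA-MB-231 siNRP1#5 (mean 99.03 CPM) than in its siNT (29.34) and shNT (82.71) controls, so at that treatment's level more would be taken off. Over the alternatives, the highest adjusted p of the HS578T siNRP1#5 call was just under the threshold of 0.05. The HS578T siNRP1#3 call was lost without any 1 of its 6 libraries, siNT replicates 1 to 3 and siNRP1#3 replicates 1 to 3, at adjusted p between 0.0671 and 0.107, with a log2 fold change between 1.17 and 1.43. It stood at adjusted p = 0.0873 without the libraries over 5% of another line, and at 0.112 on TPM with limma. The SUM159PT siNRP1#3 call was lost without siNT replicate 2 (1.11, adjusted p = 0.0901), siNT replicate 3 (adjusted p = 0.0551), siNRP1#3 replicate 1 (1.29, adjusted p = 0.0746) or siNRP1#3 replicate 3 (1.21, adjusted p = 0.0775).

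The controls of the shRNA arm already had more MET. The shNT libraries had 87.9, 61 and 142 CPM in SUM159PT, against 92.4, 82.4 and 73.3 for MDA-MB-231 and 77.3, 109 and 139 for HS578T. All of them lay above every siNT library of their line, by 1.73 ± 0.338, edgeR adjusted p = 0.00651 (SUM159PT), 1.47 ± 0.167, edgeR adjusted p = 1.12e-05 (MDA-MB-231) and 2.63 ± 0.352, edgeR adjusted p = 0.000448 (HS578T). The siNRP1 libraries of MDA-MB-231 thus ran from 61.5 to 133 CPM beside 73.3 to 92.4 CPM in shNT. SUM159PT had 96.8, 61.7 and 95.6 CPM with shNRP1#3 and 54, 55.5 and 117 with shNRP1#5. MDA-MB-231 had 74.2, 71.6 and 74.8 with shNRP1#3 and 67.3, 83.5 and 81 with shNRP1#5, and HS578T had 58.3 and 129 and 85.8, 119 and 203. The knockdown libraries overlapped shNT in all 6 comparisons, with log2 fold changes from -0.33 to 0.30 and adjusted p from 0.619 to 0.911. The arms differ in delivery, selection and harvest time as well as in the control, and which of these goes with the MET difference cannot be told apart.

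**Figure D3:**
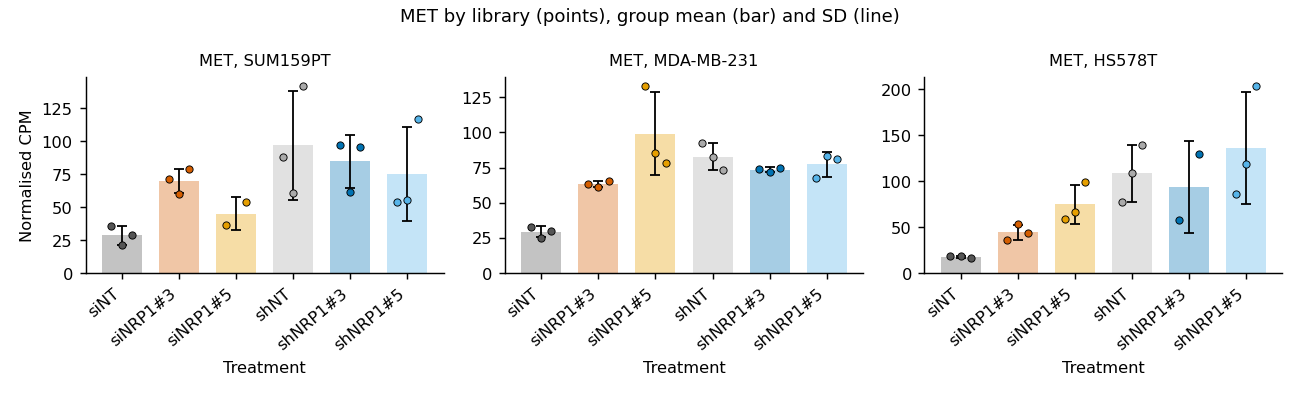
MET in every library as normalised CPM (points), with the group mean (bar) and SD (line), for the 6 treatments of each cell line. The siNT points are the lowest group in each line, at most 35.6 CPM, and the siNRP1 and shRNA groups stand above them.

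EGFR, the receptor for EGF, amphiregulin and related ligands, fell in 3 siRNA comparisons and passed in no shRNA comparison. In SUM159PT the siNT libraries had 113, 81 and 95.1 CPM, the siNRP1#3 libraries 26.1, 32.3 and 34.5 and the siNRP1#5 libraries 33.5 and 42.6. No knockdown library reached the lowest siNT value, and EGFR fell with siNRP1#3 (-1.63 ± 0.309, edgeR adjusted p = 0.00404, to 32.2% of control) and with siNRP1#5 (-1.33 ± 0.353, edgeR adjusted p = 0.0166). In MDA-MB-231 siNT had 122, 108 and 109.5 CPM, siNRP1#3 48.1, 50.6 and 62.5 and siNRP1#5 102, 78.3 and 80.8. EGFR fell with siNRP1#3 there (-1.05 ± 0.141, edgeR adjusted p = 2.85e-05), and siNRP1#5, although also below all siNT libraries, missed the threshold (-0.36 ± 0.139, edgeR adjusted p = 0.0562). In HS578T the values were 77.5, 74.2 and 82.4 in siNT, 41.1, 56.5 and 52.5 in siNRP1#3 and 52, 76 and 64.9 in siNRP1#5, the siNRP1#3 libraries all below siNT, and neither comparison passed (-0.64 ± 0.331, edgeR adjusted p = 0.295 and -0.28 ± 0.329, edgeR adjusted p = 0.581). The SUM159PT siNRP1#3 call was lost when replicate 1 of every group was left out (-1.40, adjusted p = 0.214), and the siNRP1#5 call without siNT replicate 1 (-1.21, adjusted p = 0.0516) or siNRP1#5 replicate 2 (-1.21, adjusted p = 0.0824). With shRNA, EGFR log2 fold changes ran from -0.37 (SUM159PT shNRP1#5) to 0.30 (HS578T shNRP1#5) and none passed. HS578T shNRP1#5 spread from 70.9 to 199.6 CPM beside 69.3 to 131 in shNT.

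ERBB2, the ERBB member with no ligand of its own, fell with sequence #5 in both arms of MDA-MB-231. There, siNT had 76.8, 79.4 and 84.7 CPM and siNRP1#5 41.8, 55.3 and 62.9, and shNT had 111, 98.6 and 96.7 and shNRP1#5 67.9, 68 and 64.6. Neither pair of groups overlapped, and ERBB2 fell with siNRP1#5 (-0.57 ± 0.135, edgeR adjusted p = 0.00346) and with shNRP1#5 (-0.60 ± 0.135, edgeR adjusted p = 0.00413). With only the 2 groups compared in the fit the first stood at adjusted p = 0.0724, and without replicate 2 of every group the second stood at 0.0733. In SUM159PT siNT had 99.2, 102 and 108 CPM and siNRP1#5 48.6 and 86.5, while shNT had 104, 118 and 85.9 and shNRP1#5 81.2, 70.5 and 77.2. In HS578T siNT had 49.1, 61.3 and 102 and siNRP1#5 38.3, 40.5 and 46.6, while shNT had 70, 76 and 59.8 and shNRP1#5 46.1, 33.3 and 29.5. Each of these 4 knockdown groups also lay below all libraries of its control, but none passed alone, with log2 fold changes of -0.60 and -0.40 in SUM159PT (edgeR adjusted p = 0.0705 and 0.295) and -0.76 and -0.93 in HS578T (0.0874 and 0.137). In HS578T siNRP1#5, MDA-MB-231 transcripts at their control level would account for 23.7, 15.2 and 12.2 of those CPM. With other lines subtracted at that level ERBB2 passed as lower there (-1.27, edgeR adjusted p = 0.0265). It did not pass with subtraction at the level of the same treatment, at which MDA-MB-231 had less ERBB2. With siNRP1#3 SUM159PT had 109, 136 and 119.6 CPM, all above siNT, MDA-MB-231 94.1, 76.2 and 102 and HS578T 75.8, 61.1 and 115, both overlapping it, with log2 fold changes of 0.24, 0.20 and 0.25, none past the threshold. With shNRP1#3 SUM159PT had 85.7, 84.1 and 75.7 CPM, MDA-MB-231 88.6, 81.4 and 84.2 and HS578T 55.9 and 30.1, below all shNT libraries of each line, with adjusted p = 0.546, 0.338 and 0.742.

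ERBB3, from a low level, rose with siNRP1#3 and fell with sequence #5 in MDA-MB-231. Its siNT libraries had 1.73, 1.58 and 4.04 CPM, siNRP1#3 4.03, 3.83 and 5.07 and siNRP1#5 1.3, 0.99 and 1.27. The siNT replicate 3 overlapped the siNRP1#3 libraries and all siNRP1#5 libraries lay below siNT. ERBB3 rose with siNRP1#3 (0.83 ± 0.265, edgeR adjusted p = 0.0271) and fell with siNRP1#5 (-1.03 ± 0.282, edgeR adjusted p = 0.00986). By shRNA in that line, shNT had 4.52, 4.53 and 4.85 CPM, shNRP1#3 3.37, 3.5 and 3.25 and shNRP1#5 1.74, 1.14 and 1.59. ERBB3 fell with shNRP1#5 to 32.5% of control (-1.62 ± 0.268, edgeR adjusted p = 0.000419), a call kept under every alternative, whereas shNRP1#3 gave -0.45 ± 0.26, edgeR adjusted p = 0.411. The siNRP1#3 call was lost without siNT replicate 1 (0.64, adjusted p = 0.126), siNT replicate 2 (0.58, adjusted p = 0.139), siNRP1#3 replicate 1 (0.86, adjusted p = 0.0568) or siNRP1#3 replicate 3 (0.70, adjusted p = 0.102). The siNRP1#5 call was lost without siNT replicate 3 (-0.46, adjusted p = 0.12), and on TPM it stood at -0.46 (limma adjusted p = 0.104).

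In HS578T the ERBB3 libraries had 0.643, 0.876 and 1.58 CPM in siNT, 2.61, 2.38 and 2.42 in siNRP1#3 and 0.785, 0.991 and 0.99 in siNRP1#5. All siNRP1#3 values were above siNT, with 1.25 ± 0.364, edgeR adjusted p = 0.0592, while siNRP1#5 overlapped siNT (-0.17 ± 0.367, edgeR adjusted p = 0.788, or -1.32, adjusted p = 0.177 with other lines subtracted). In its shRNA arm shNT had 2.2, 2.29 and 1.64, shNRP1#3 1.1 and 0.586 and shNRP1#5 1.21, 0.818 and 1.22, all knockdown values below shNT and neither past the threshold (adjusted p = 0.414 and 0.195). In SUM159PT ERBB3 rested on between 0 and 38 estimated reads per library. The siNRP1#3 libraries (0.51, 0.314 and 0.751 CPM) lay above siNT (0.264, 0.138 and 0.194), and both shRNA groups (0.231, 0.274 and 0.218 and 0.149, 0.327 and 0.184) lay below shNT (0.584, 0.755 and 0.609). None of these passed, with adjusted p from 0.139 to 0.292 in that line.

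**Figure D4:**
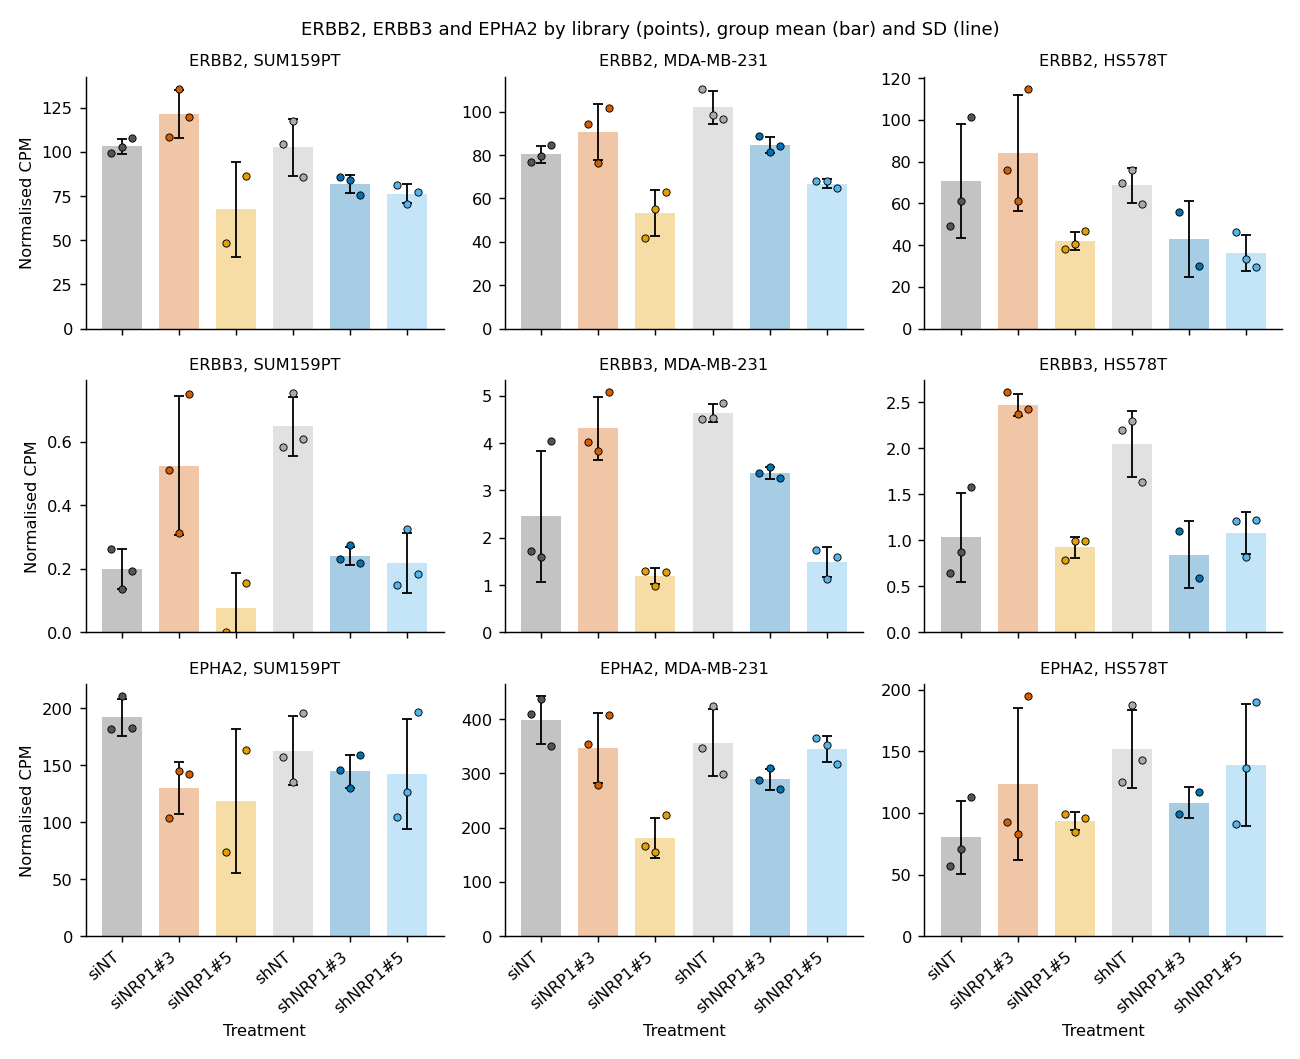
ERBB2, ERBB3 and EPHA2 (rows) in every library as normalised CPM (points), with the group mean (bar) and SD (line), for the 6 treatments of SUM159PT, MDA-MB-231 and HS578T (columns). The siNRP1#5 and shNRP1#5 bars of ERBB2 and ERBB3 stand below their controls in MDA-MB-231, and EPHA2 in MDA-MB-231 drops with siNRP1#5 (at most 222 CPM beside at least 350 CPM in siNT) but not with shNRP1#5.

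PDGFRA fell with siNRP1#3 in both lines that express it. In HS578T siNT had 272, 286 and 233 CPM, siNRP1#3 38.1, 92.7 and 68.9 and siNRP1#5 194, 217 and 230.4. The siNRP1#3 libraries were far below the others, at 25.2% of control (-1.99 ± 0.256, edgeR adjusted p = 0.000402), and siNRP1#5 came just below siNT (-0.31 ± 0.247, edgeR adjusted p = 0.409, or 0.05, adjusted p = 0.913 with other lines subtracted). In TPM the order of those last 2 groups was the other way, with a mean of 79.3 TPM in siNRP1#5 beside 69.4 in siNT. The siNRP1#3 call held under every alternative, and MDA-MB-231 transcripts would add at most 0.0177 CPM to those libraries. In SUM159PT siNT had 119, 86.4 and 95.1 CPM, siNRP1#3 35, 41.5 and 26.8 and siNRP1#5 29.4 and 71.7. All knockdown values were below siNT, and siNRP1#3 passed (-1.53 ± 0.441, edgeR adjusted p = 0.041) while siNRP1#5 did not (-0.98 ± 0.497, edgeR adjusted p = 0.183). The SUM159PT call was lost without any 1 of its 6 libraries, siNT replicates 1 to 3 and siNRP1#3 replicates 1 to 3, at adjusted p between 0.063 and 0.137 and a log2 fold change between −1.69 and −1.37, and on TPM it stood at -1.16 (limma adjusted p = 0.106).

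By shRNA, PDGFRA had 65.4, 124 and 57.1 CPM in SUM159PT shNT, 24.4, 54.2 and 17.9 in shNRP1#3 and 69.5, 31.3 and 36.3 in shNRP1#5. HS578T had 155, 158 and 202 CPM in shNT, 109 and 138 in shNRP1#3 and 134, 129 and 162 in shNRP1#5. The shNRP1#3 values lay below shNT in both lines without passing (adjusted p = 0.176 and 0.775). In MDA-MB-231 PDGFRA was at or below 1.12 CPM in 17 of 18 libraries. There shNT had 0.0385, 0.0333 and 0.0822 CPM and shNRP1#5 0.0833, 0.0946 and 0.15, which do not overlap and rest on 2 to 10 estimated reads. The exception was shNRP1#3 replicate 3 with 5.80 CPM (330 estimated reads), the library that also held HS578T and SUM159PT transcripts, whose share would account for 3.12 and 1.07 CPM. With it, the shNRP1#3 comparison gave 5.29 ± 1.43, edgeR adjusted p = 0.0608, and without it 2.10, edgeR adjusted p = 0.432.

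PDGFRB passed in none of the 12 comparisons by edgeR, although its unadjusted p was under 0.05 in 5 of them and DESeq2 called 3. In SUM159PT siNT had 66, 55 and 52.3 CPM, siNRP1#3 36.6, 46.3 and 34.1 and siNRP1#5 79.9 and 157. The siNRP1#3 libraries were all below and the siNRP1#5 libraries all above siNT, with -0.56 ± 0.472, edgeR adjusted p = 0.501 and 1.04 ± 0.519, edgeR adjusted p = 0.174. Its shNT libraries had 35.8, 83 and 28, shNRP1#3 8.16, 21.1 and 9.23 and shNRP1#5 124, 42.6 and 45.6, and shNRP1#3 lay below shNT (-1.92 ± 0.489, edgeR adjusted p = 0.0651). In MDA-MB-231 siNT had 6.59, 8.24 and 9.94 CPM, siNRP1#3 7.62, 7.34 and 11.3 and siNRP1#5 12.6, 11.9 and 15.2, and shNT 9.98, 15.7 and 15.7, shNRP1#3 4.34, 4.95 and 12.6 and shNRP1#5 9.25, 7.17 and 5.99. The siNRP1#5 libraries were above siNT (0.70 ± 0.312, edgeR adjusted p = 0.103) and the shNRP1#5 libraries below shNT (-0.88 ± 0.31, edgeR adjusted p = 0.0533). In HS578T the siNT libraries had 271, 314 and 350.1 CPM, siNRP1#3 248, 258 and 271 and siNRP1#5 400.5, 289.7 and 379.7, against 166, 147 and 126 in shNT, 113 and 58.4 in shNRP1#3 and 146, 165 and 83 in shNRP1#5. Every shRNA library of HS578T was thus below every siRNA library, and the difference between its controls passed (-1.07 ± 0.264, edgeR adjusted p = 0.0115).

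IGF1R fell in 4 comparisons and rose in 1. In SUM159PT siNT had 61.5, 40 and 52.6 CPM, siNRP1#3 30.3, 20 and 34 and siNRP1#5 17.1 and 31.8. All knockdown values were below siNT, and both comparisons passed (-0.86 ± 0.247, edgeR adjusted p = 0.0384 for siNRP1#3 and -1.06 ± 0.284, edgeR adjusted p = 0.0175 for siNRP1#5). In MDA-MB-231 siNT had 36.8, 33.5 and 41.3 CPM, siNRP1#3 18.4, 19.2 and 27.3 and siNRP1#5 33.4, 21.8 and 32.3, with a fall for siNRP1#3 (-0.76 ± 0.16, edgeR adjusted p = 0.00177) and -0.33 ± 0.159, edgeR adjusted p = 0.125 for siNRP1#5, which also lay below siNT. Also in MDA-MB-231, shNT had 62.5, 62.7 and 56.6 CPM, shNRP1#3 58.9, 53.5 and 53 and shNRP1#5 38.2, 40.5 and 35.9. There shNRP1#5 lay well below shNT (-0.66 ± 0.158, edgeR adjusted p = 0.00662). In SUM159PT shNRP1#3 had 58, 61 and 62.6 CPM and shNRP1#5 44.8, 36.2 and 53.9 beside 50, 54 and 51.1 in shNT. The HS578T shRNA libraries ran from 7.49 to 10.9 CPM, and none of these comparisons passed.

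The IGF1R values depended on the scale and on single libraries. In TPM, SUM159PT siNT had 10.2, 4.03 and 13.9 and siNRP1#3 9.94, 4.13 and 12.4, so that on log2(TPM + 0.5) the difference was -0.057 (limma adjusted p = 0.965). In MDA-MB-231 siNRP1#3 the TPM difference was -0.60 (limma adjusted p = 0.0871). The SUM159PT siNRP1#3 call was lost without siNT replicate 1 or 3 or any of siNRP1#3 replicates 1 to 3, at adjusted p between 0.0534 and 0.134. The siNRP1#5 call of that line was lost without siNT replicate 1 (-0.92, adjusted p = 0.0589) or siNRP1#5 replicate 2 (-0.72, adjusted p = 0.133), and on TPM it stood at -1.43 (limma adjusted p = 0.0933). The 2 MDA-MB-231 calls were kept without each of their libraries in turn, but leaving out replicate 1 of every group gave adjusted p = 0.0639 for siNRP1#3 and 0.0656 for shNRP1#5. In HS578T siNT had 8.4, 6.92 and 11 CPM, siNRP1#3 9.14, 7.36 and 15.9 and siNRP1#5 16.4, 18.6 and 19.6, a rise of 1.04 ± 0.278, edgeR adjusted p = 0.0161 for siNRP1#5. Of those siNRP1#5 values, MDA-MB-231 transcripts would account for 12.7, 8.14 and 6.56 CPM. With other lines subtracted the log2 fold change was 0.31, adjusted p = 0.611, and without siNT replicate 2 or siNRP1#5 replicate 3 the adjusted p was 0.0824 or 0.05. On TPM it was 0.55 (limma adjusted p = 0.341).

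**Figure D5:**
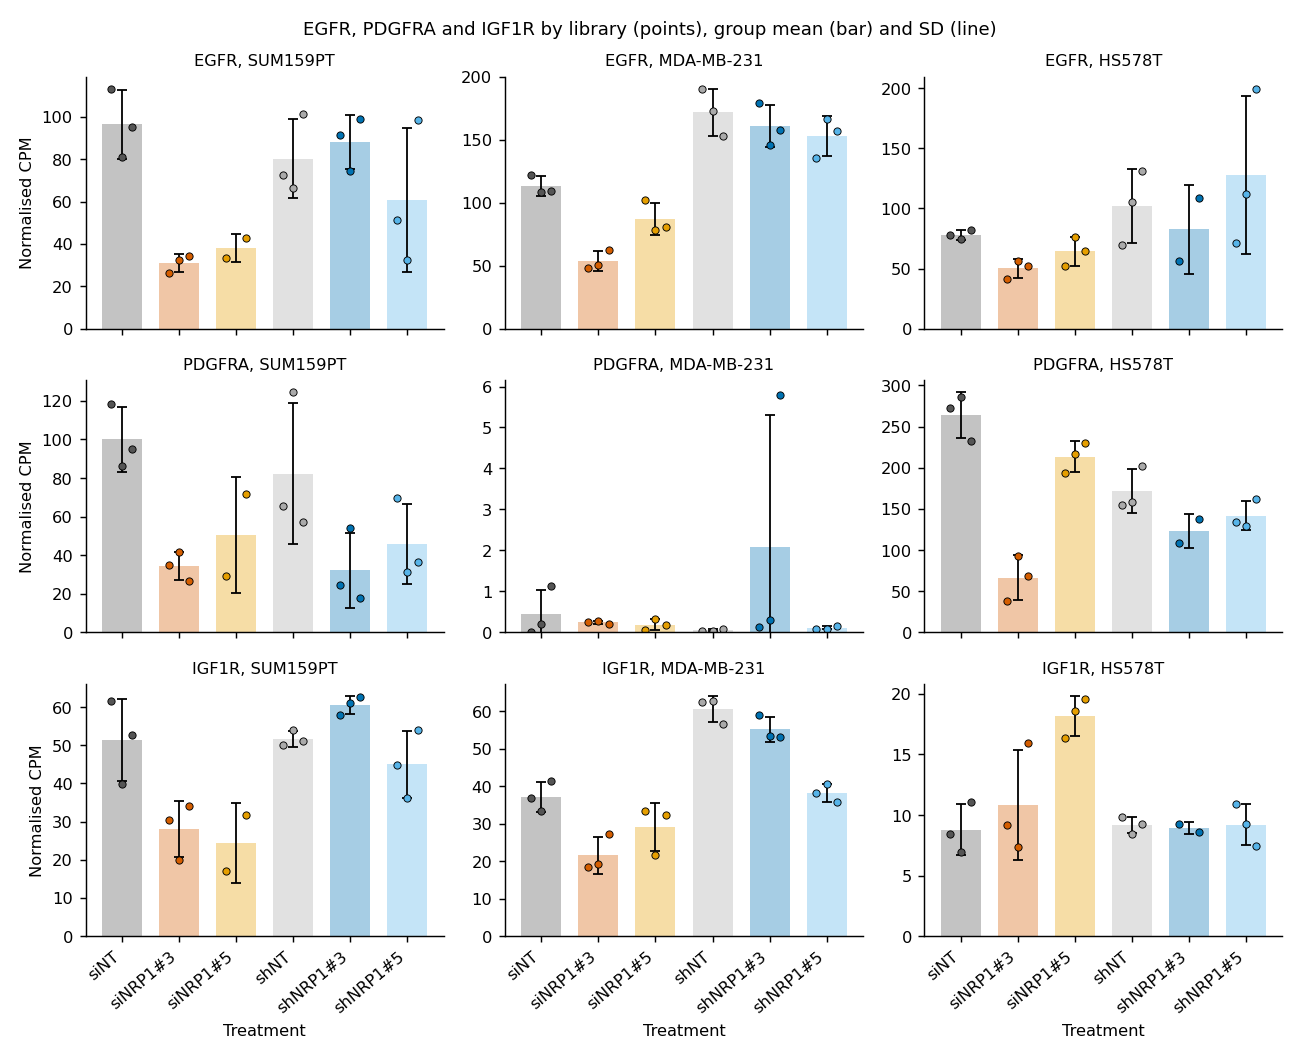
EGFR, PDGFRA and IGF1R (rows) in every library as normalised CPM (points), with the group mean (bar) and SD (line), for the 6 treatments of SUM159PT, MDA-MB-231 and HS578T (columns). EGFR has its lowest group mean with siNRP1#3 in each line, PDGFRA in HS578T drops to between 38.1 and 92.7 CPM with siNRP1#3, and the 1 high PDGFRA point of MDA-MB-231 is shNRP1#3 replicate 3 at 5.80 CPM.

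FGFR1, AXL and EPHA2 each had 1 call, all in MDA-MB-231 with siRNA and all lower. EPHA2 had 408, 436 and 350.3 CPM in siNT, 354, 279 and 407 in siNRP1#3 and 166, 155 and 222 in siNRP1#5. siNRP1#5 lay far below siNT, at 46% (-1.12 ± 0.157, edgeR adjusted p = 2.56e-05), a call kept under every alternative, and siNRP1#3 overlapped siNT (-0.18 ± 0.155, edgeR adjusted p = 0.432). With shNRP1#5, which has the sequence of siNRP1#5, the values were 365, 352 and 318 CPM beside 347, 423 and 299.7 in shNT, which overlap (-0.041 ± 0.155, edgeR adjusted p = 0.883). In SUM159PT EPHA2 had 182, 210.5 and 183 CPM in siNT, 104, 145 and 142 in siNRP1#3 and 73.6 and 163 in siNRP1#5, all below siNT and neither past the threshold (adjusted p = 0.215 and 0.127). In HS578T siNRP1#5, of 99.2, 84.8 and 95.6 CPM measured, MDA-MB-231 transcripts at control level would make up 98.2, 62.9 and 50.7 CPM, beside 56.8, 70.5 and 113 CPM in siNT. That comparison gave 0.22 ± 0.331, edgeR adjusted p = 0.687, and -1.69, edgeR adjusted p = 0.145 with other lines subtracted at control level. EPHA2 was lower in MDA-MB-231 siNRP1#5 (166, 155 and 222 CPM) than in its controls, so at that treatment's level less would be taken off. In the shRNA arm of HS578T, shNRP1#3 had 99.4 and 117 CPM, below the 125, 187 and 143 CPM of shNT (adjusted p = 0.822).

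FGFR1 had 98.3, 103 and 99.9 CPM in MDA-MB-231 siNT and 77.7, 66.8 and 76.2 in siNRP1#3, a fall of small size with no overlap (-0.42 ± 0.112, edgeR adjusted p = 0.00948), which on TPM was -0.30 (limma adjusted p = 0.274). By shRNA in that line, shNT had 104, 102 and 105 CPM, and shNRP1#3 (111, 112 and 119.7) and shNRP1#5 (108, 112 and 105) lay just above it (adjusted p = 0.572 and 0.678). In SUM159PT it had 106, 147 and 118 CPM in siNT, 67, 78.9 and 73.1 in siNRP1#3 and 105 and 229 in siNRP1#5, and 125, 128 and 137 in shNT, 70.5, 54.4 and 73.5 in shNRP1#3 and 136, 119.5 and 171 in shNRP1#5. Both #3 groups lay below their control, with -0.76 ± 0.238, edgeR adjusted p = 0.0578 in the siRNA and -0.97 ± 0.239, edgeR adjusted p = 0.0558 in the shRNA arm. AXL had 1008, 1003 and 913 CPM in MDA-MB-231 siNT and 828, 735 and 756 in siNRP1#3 (-0.31 ± 0.0974, edgeR adjusted p = 0.0239), and 788, 772 and 856 in siNRP1#5, also below siNT (-0.26 ± 0.0974, edgeR adjusted p = 0.0542). The AXL call was lost without siNT replicate 1 (-0.28, adjusted p = 0.0949), siNT replicate 2 (-0.31, adjusted p = 0.0647), siNRP1#3 replicate 2 (-0.28, adjusted p = 0.0859) or siNRP1#3 replicate 3 (-0.30, adjusted p = 0.0689), and stood at 0.0815 on TPM with limma and 0.113 without the filter on low counts. With shNRP1#3, AXL was below every shNT library in each line. SUM159PT had 149, 96.2 and 190.2 CPM beside 326, 251 and 436 in shNT, MDA-MB-231 had 576, 585 and 629 beside 817, 741 and 723, and HS578T had 594 and 831 beside 984, 1177 and 1175. None of the 3 passed alone (adjusted p = 0.0787, 0.0554 and 0.673).

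In 5 of the 12 comparisons libraries of the same replicate number deviated together, and there the fit with the replicate number as a block changed 5 calls, all to past the threshold. With that pairing FGFR1 was -0.76 in SUM159PT siNRP1#3 (edgeR adjusted p = 0.0359) and -0.97 in SUM159PT shNRP1#3 (0.0341), AXL was -1.22 in SUM159PT shNRP1#3 (0.00878), PDGFRB was -0.99 in MDA-MB-231 shNRP1#3 (0.0465) and PDGFRA was 4.72 in MDA-MB-231 shNRP1#3 (0.0357), which includes the library with transcripts of other lines.

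Averaged over the 3 lines in 1 model, more receptors passed. For siNRP1#3 6 of the 10 did (21.3% of all genes): MET (1.24 ± 0.178, edgeR adjusted p = 1.31e-06) and ERBB3 (1.15 ± 0.225, edgeR adjusted p = 0.000168) were higher, and EGFR (-1.12 ± 0.165, edgeR adjusted p = 2.01e-06), FGFR1 (-0.56 ± 0.125, edgeR adjusted p = 0.000879), IGF1R (-0.45 ± 0.134, edgeR adjusted p = 0.0121) and PDGFRA (-1.46 ± 0.428, edgeR adjusted p = 0.0117) were lower. For siNRP1#5 6 passed (30.3%): MET (1.49 ± 0.184, edgeR adjusted p = 4.09e-08) and PDGFRB (0.64 ± 0.232, edgeR adjusted p = 0.0332) were higher, and EGFR (-0.67 ± 0.172, edgeR adjusted p = 0.00256), ERBB2 (-0.65 ± 0.136, edgeR adjusted p = 0.000248), ERBB3 (-0.78 ± 0.265, edgeR adjusted p = 0.0215) and EPHA2 (-0.54 ± 0.167, edgeR adjusted p = 0.0118) were lower. For shNRP1#3 3 passed (5.91%), all lower: AXL (-0.74 ± 0.151, edgeR adjusted p = 0.00137), ERBB3 (-1.05 ± 0.231, edgeR adjusted p = 0.00287) and PDGFRB (-1.21 ± 0.239, edgeR adjusted p = 0.000977). For shNRP1#5 2 passed (15.5%), both lower: ERBB2 (-0.65 ± 0.129, edgeR adjusted p = 0.00044) and ERBB3 (-1.36 ± 0.22, edgeR adjusted p = 2.42e-05). ERBB2 and ERBB3 were thus lower on average with sequence #5 in the siRNA and in the shRNA arm, in separate libraries with separate controls. Leaving out 1 replicate number in every group ended 8 of these 17 calls: AXL with shNRP1#3 (−0.69, adjusted p = 0.0952, without replicate 1), EPHA2 with siNRP1#5 (−0.31, 0.372, without 2), ERBB3 with shNRP1#3 (−0.90, 0.103, without 2) and siNRP1#5 (−0.69, 0.095, without 2), IGF1R with siNRP1#3 (−0.39, 0.225, without 1), PDGFRA with siNRP1#3 (−0.77, 0.231, without 3), and PDGFRB with shNRP1#3 (−0.95, 0.103, without 2) and siNRP1#5 (0.46, 0.255, without 3). Some of them were also lost without another replicate number. Without replicate 1 these were ERBB3 with shNRP1#3 and with siNRP1#5, PDGFRA with siNRP1#3 and PDGFRB with siNRP1#5, and without replicate 2 IGF1R with siNRP1#3. The ERBB3 mean with siNRP1#5 was also lost without the filter on low counts, and was −2.17 without replicate 3 of every group. With other lines subtracted the siNRP1#5 means were 1.51 for MET, 0.75 for PDGFRB (adjusted p = 0.0107), −0.86 for EGFR, −0.86 for ERBB2, −1.25 for ERBB3 (adjusted p = 0.00304) and −1.21 for EPHA2 (adjusted p = 0.00248). Without the HS578T siNRP1#5 libraries, and so over the other two lines, these 6 means still passed, at 1.21, 0.86, −0.86, −0.60, −1.09 and −0.92 in that order, and IGF1R also passed (−0.71, adjusted p = 0.00256). The PDGFRA mean includes MDA-MB-231, where the gene is near its floor, and turned to 0.85, adjusted p = 0.584, when transcripts of other lines were subtracted at the level of the same treatment. The EPHA2 mean with siNRP1#5 still passed with that subtraction, and moved less than with subtraction at control level.

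Whether an effect differed between lines was tested for each treatment. With siNRP1#5 IGF1R (edgeR adjusted p = 7.42e-05) and EPHA2 (0.03) passed, 2 of 10 beside 18.2% of all genes. Without the HS578T siNRP1#5 libraries the adjusted p was 0.31 for IGF1R and 0.679 for EPHA2, and with other lines subtracted at control level 0.0615 and 0.647. Subtraction at the level of the same treatment gave edgeR adjusted p = 0.000453 for IGF1R and 0.15 for EPHA2. With siNRP1#3 1 passed, IGF1R (0.0449, beside 3.42%), which was kept in 2 of 10 alternatives, and with shNRP1#3 1 passed, PDGFRA (0.00426, beside 0.747%), which stood at 0.581 without MDA-MB-231 shNRP1#3 replicate 3. With shNRP1#5 0 passed by edgeR's test (3.81%), and 1 had an unadjusted p under 0.05 (3941 of 23416 genes). MET, EGFR, ERBB2 and ERBB3 passed in none of the 4, and this does not show that the lines respond alike.

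Between the sequences in SUM159PT, siNRP1#5 against siNRP1#3 called 4 of the 10 (29.7%): FGFR1 (1.20 ± 0.261, edgeR adjusted p = 0.00327) and PDGFRB (1.60 ± 0.52, edgeR adjusted p = 0.0297) were higher, and ERBB2 (-0.84 ± 0.225, edgeR adjusted p = 0.0109) and ERBB3 (-2.57 ± 0.73, edgeR adjusted p = 0.0153) lower with #5. Between its hairpins 3 passed (8.71%), all higher with #5: PDGFRB (2.48 ± 0.499, edgeR adjusted p = 0.00486), AXL (1.32 ± 0.324, edgeR adjusted p = 0.016) and FGFR1 (1.13 ± 0.24, edgeR adjusted p = 0.00652). FGFR1 and PDGFRB therefore went the same way in both arms of this line. On TPM the siRNA differences of FGFR1 (0.58, limma adjusted p = 0.16) and PDGFRB (1.07, 0.13) and the hairpin differences of AXL (1.20, 0.0616) and FGFR1 (0.89, 0.0546) did not pass. Without siNRP1#5 replicate 3, PDGFRB was 1.06, adjusted p = 0.249 and FGFR1 0.55, adjusted p = 0.118. PDGFRB was 1.55, adjusted p = 0.0809 without siNRP1#3 replicate 1 and 1.51, adjusted p = 0.0769 without siNRP1#3 replicate 3. Without siNRP1#5 replicate 2, ERBB2 was -0.51, adjusted p = 0.126 and ERBB3 -1.77, adjusted p = 0.069, and without replicate 3 ERBB3 was -7.63, adjusted p = 0.00258, a fitted value against the 0 reads of replicate 2 and no bound. For the hairpins PDGFRB was 1.80, adjusted p = 0.026 without shNRP1#5 replicate 1, and the AXL call was lost without shNRP1#3 replicate 1 (1.32, adjusted p = 0.0677), shNRP1#3 replicate 2 (1.11, adjusted p = 0.0805) or shNRP1#5 replicate 3 (0.95, adjusted p = 0.0846).

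In MDA-MB-231, siNRP1#5 against siNRP1#3 called 7 of the 10 (39%): MET (0.64 ± 0.164, edgeR adjusted p = 0.00453), EGFR (0.69 ± 0.14, edgeR adjusted p = 0.000664), FGFR1 (0.64 ± 0.113, edgeR adjusted p = 0.000161) and IGF1R (0.43 ± 0.16, edgeR adjusted p = 0.0409) were higher with #5, and ERBB3 (-1.85 ± 0.281, edgeR adjusted p = 3.68e-05), EPHA2 (-0.94 ± 0.156, edgeR adjusted p = 9.42e-05) and ERBB2 (-0.77 ± 0.135, edgeR adjusted p = 0.00017) lower. Between its hairpins 3 passed, all lower (14.2%): ERBB3 (-1.17 ± 0.27, edgeR adjusted p = 0.00831), IGF1R (-0.53 ± 0.158, edgeR adjusted p = 0.032) and PDGFRA (-4.21 ± 1.29, edgeR adjusted p = 0.0444). The PDGFRA call was lost without shNRP1#3 replicate 3 (-1.01, adjusted p = 0.582) and without shNRP1#5 replicate 1 (-4.02, adjusted p = 0.128), 2 (-4.12, adjusted p = 0.136) or 3 (-4.49, adjusted p = 0.122). The IGF1R call of the shRNA arm was lost without any 1 of its 6 libraries, shNRP1#3 replicates 1 to 3 and shNRP1#5 replicates 1 to 3 (adjusted p between 0.0575 and 0.131), and that of the siRNA arm without siNRP1#3 replicate 1 or 2 or siNRP1#5 replicate 1 or 3 (0.0994 to 0.169). The ERBB3 call of the shRNA arm was lost without shNRP1#5 replicate 2 (-1.01, adjusted p = 0.0523). On TPM the siRNA differences of MET (0.42, limma adjusted p = 0.112), EGFR (0.42, 0.105) and FGFR1 (0.32, 0.19) did not pass and that of IGF1R was near 0, at −0.007, and neither did the hairpin differences of ERBB3 (-0.48, 0.134), IGF1R (-0.51, 0.183) and PDGFRA (-0.90, 0.288). Between the hairpins of HS578T 0 passed by edgeR (0.544%), 1 had an unadjusted p under 0.05 (2129 of 19661 genes) and DESeq2 called 0. In its siRNA arm 3 passed (18.1%), PDGFRA (1.68 ± 0.253, edgeR adjusted p = 0.000701) higher and ERBB3 (-1.42 ± 0.365, edgeR adjusted p = 0.0147) and ERBB2 (-1.01 ± 0.303, edgeR adjusted p = 0.0299) lower. The ERBB2 call there was lost without siNRP1#3 replicate 1 or 3 or any of siNRP1#5 replicates 1 to 3 (0.0587 to 0.134), and the ERBB3 call without siNRP1#3 replicate 1 (-1.37, adjusted p = 0.0536). With other lines subtracted the siRNA differences in HS578T were 1.98 (adjusted p = 0.000288) for PDGFRA, -2.60 (0.0137) for ERBB3 and -1.55 (0.0094) for ERBB2. ERBB3 was lower with #5 than with #3 by siRNA in all 3 lines.

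The same #5 sequence was also compared between arms, as the siRNA effect minus the shRNA effect. In MDA-MB-231 3 of the 10 differed (23.7% of all genes): MET (1.86 ± 0.233, edgeR adjusted p = 1.68e-05), EPHA2 (-1.08 ± 0.22, edgeR adjusted p = 0.0015) and PDGFRB (1.57 ± 0.44, edgeR adjusted p = 0.0149). MET and PDGFRB were higher and EPHA2 lower by siRNA than by shRNA. EPHA2 stood at adjusted p = 0.0758 without replicate 1 of every group and PDGFRB at 0.172 without replicate 2. In SUM159PT and HS578T 0 passed by edgeR's test (2.51% and 0.854%). An unadjusted p under 0.05 was found for 1 and 2 receptors (4117 of 20067 and 2522 of 19661 genes), and DESeq2 called 0 and 1. NRP1 itself was reduced further by siRNA in MDA-MB-231 (a difference of -3.83 ± 0.222, edgeR adjusted p = 8.14e-09).

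The 2 controls also differed for 8 receptor and line pairs. In SUM159PT 1 passed, MET (14.4% of all genes). In MDA-MB-231 5 passed (20.6%): besides MET, EGFR (0.57 ± 0.139, edgeR adjusted p = 0.00687), ERBB3 (0.89 ± 0.263, edgeR adjusted p = 0.022) and IGF1R (0.68 ± 0.159, edgeR adjusted p = 0.0053) were higher in shNT, and AXL was lower (-0.39 ± 0.0975, edgeR adjusted p = 0.00843, but -0.15 on TPM, limma adjusted p = 0.362). In HS578T MET and PDGFRB passed (17.9%). The ERBB3 call was lost without siNT replicate 1 (0.70, adjusted p = 0.102), siNT replicate 2 (0.64, adjusted p = 0.12), shNT replicate 2 (0.90, adjusted p = 0.0515) or shNT replicate 3 (0.85, adjusted p = 0.0667). The HS578T PDGFRB call was lost without shNT replicate 3 (-0.99, adjusted p = 0.0574).

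The wider pathway was read from 4 lists of ligands, other receptors, adaptors with effectors, and negative regulators with sheddases. Of 25 ligand genes tested, 4 were higher and 2 lower with siNRP1#3 on average over the lines, and 6 higher and 2 lower with siNRP1#5 (24% and 32% called, beside 21.3% and 30.3% of all genes). With shNRP1#3 1 was higher and 0 lower (4%, beside 5.91%), and with shNRP1#5 5 higher and 2 lower (28%, beside 15.5%). PDGFB, a ligand of both PDGF receptors, rose with siNRP1#5 in each of the 3 lines (3.60, 2.80 and 4.02 for SUM159PT, MDA-MB-231 and HS578T) and on average (3.46 ± 0.37, edgeR adjusted p = 2.02e-09). In HS578T it had 0.86 ± 0.573 TPM with siNRP1#5 beside 0.0833 ± 0.0651 in siNT (SD, n = 3). Those siNRP1#5 libraries hold MDA-MB-231 transcripts, and MDA-MB-231 had 14.16 TPM of PDGFB with siNRP1#5. How much of the HS578T rise such transcripts make up was not tested. The PDGFB averages were also higher with siNRP1#3 (1.74 ± 0.358, edgeR adjusted p = 0.000357) and with shNRP1#5 (1.43 ± 0.397, edgeR adjusted p = 0.0116), but the lines were not alike. With siNRP1#3 PDGFB passed in HS578T (3.78, edgeR adjusted p = 0.00898) and stood at 1.81 (0.101) in SUM159PT and -0.36 (0.394) in MDA-MB-231. With shNRP1#5 it rose in SUM159PT (4.11, edgeR adjusted p = 0.00301), fell in MDA-MB-231 (-1.18, 0.00661) and did not pass in HS578T (1.42, 0.359). AREG, the EGFR ligand amphiregulin, was higher on average with siNRP1#5 (1.88 ± 0.349, edgeR adjusted p = 5.99e-05), with 3.87 (0.0068) in HS578T, 1.34 (0.000454) in MDA-MB-231 and 0.49 (0.528) in SUM159PT, and 0.90 (0.0413) without the HS578T siNRP1#5 libraries. Those libraries had 5.22 ± 6.11 TPM beside 0.38 ± 0.382 in HS578T siNT. MDA-MB-231, whose transcripts they hold, had 41.35 TPM in siNT and 89.95 with siNRP1#5. The part of these transcripts in the HS578T value was not tested.

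Other ligands were near their floor in some lines. EFNA2, an ephrin-A ligand, rose with siNRP1#5 in MDA-MB-231 (2.16 ± 0.511, edgeR adjusted p = 0.00353), and its siNT libraries in the other lines held at most 1 estimated read each. With shNRP1#5 EFNA2 had 10, 11 and 2 estimated reads in SUM159PT beside 0 in every shNT library, and -1.06 (edgeR adjusted p = 0.112) in MDA-MB-231. FGF2, a ligand of FGFR1, passed on average with shNRP1#3 (2.00 ± 0.467, edgeR adjusted p = 0.00613), a value that rests on MDA-MB-231, where shNT had 0, 0 and 1 estimated reads and shNRP1#3 2, 18 and 37. It stood at 0.45 (0.729) in SUM159PT and 0.04 (0.992) in HS578T, and the average was 1.18 (0.37) with other lines subtracted and 1.71 (0.0378) without MDA-MB-231 shNRP1#3 replicate 3.

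Among 18 negative regulators and sheddases tested, 10 passed with siNRP1#3, 4 higher and 6 lower (55.6%, beside 21.3% of all genes, with a median log2 fold change of −0.12 beside 0.021), and 6 passed with siNRP1#5, all higher (33.3%, beside 30.3%). LRIG1, which promotes the degradation of ERBB receptors, fell with siNRP1#3 (-1.65 ± 0.176, edgeR adjusted p = 2.08e-09), as did ADAM9, a membrane protease (-1.51 ± 0.166, edgeR adjusted p = 3.54e-09), SOCS3, a suppressor of cytokine signalling (-1.22 ± 0.173, edgeR adjusted p = 1.02e-06), and TIMP3, an inhibitor of metalloproteases (-1.17 ± 0.14, edgeR adjusted p = 2.93e-08). On average TIMP3 was higher with siNRP1#5 (0.85 ± 0.144, edgeR adjusted p = 1.34e-05), where of the lines MDA-MB-231 alone passed (2.29, 1.58e-09) and SUM159PT stood at -0.26, and it was lower with shNRP1#3 (-0.56 ± 0.145, edgeR adjusted p = 0.0136), where no line passed alone. With shRNA 3 were lower with shNRP1#3 (16.7%, beside 5.91%), and 3 higher and 1 lower with shNRP1#5 (22.2%, beside 15.5%). Of 20 adaptors and effectors, 3 were higher and 3 lower with siNRP1#3 (30%, beside 21.3%), 4 and 1 with siNRP1#5 (25%, beside 30.3%), 1 and 3 with shNRP1#3 (20%, beside 5.91%), and 2 and 2 with shNRP1#5 (20%, beside 15.5%). On average GRB2, the adaptor that links receptors to RAS, fell with siNRP1#3 (-0.93 ± 0.112, edgeR adjusted p = 2.85e-08), and PIK3CA, a catalytic subunit of PI3K, fell with siNRP1#3 (-1.11 ± 0.226, edgeR adjusted p = 0.000311) and siNRP1#5 (-0.78 ± 0.235, edgeR adjusted p = 0.00977). With siNRP1#3 alone, 0 of the 20 passed in HS578T and 1 passed as lower in SUM159PT. GRB2 in HS578T had 35.4 ± 10.2 TPM with siNRP1#3 beside 36.9 ± 4.67 in siNT (SD, n = 3). IRS1, a substrate of IGF1R, was higher on average with siNRP1#5 (0.97 ± 0.186, edgeR adjusted p = 9.1e-05), passing in SUM159PT (1.56, 0.0153) and HS578T (1.19, 0.0214) but not in MDA-MB-231 (0.18, 0.361). In HS578T IRS1 had 4.387 ± 0.867 TPM with siNRP1#5 beside 1.647 ± 0.254 in siNT. Those siNRP1#5 libraries hold MDA-MB-231 transcripts, and the MDA-MB-231 controls had 10.97 TPM (siNT) and 19.78 TPM (shNT). The part of such transcripts in the rise was not tested. In SUM159PT this substrate had 6.595 ± 6.03 TPM with siNRP1#5 (n = 2) beside 2.88 ± 1.19 in siNT. IRS2, another such substrate, had an average of 0.94 ± 0.211 (edgeR adjusted p = 0.000637) with siNRP1#5 that rests on HS578T alone (3.51, 0.000369), beside -0.52 (0.466) in SUM159PT and -0.14 (0.533) in MDA-MB-231, and without the HS578T siNRP1#5 libraries it was -0.35 (0.358). With shNRP1#3 the IRS2 average passed (1.36 ± 0.284, edgeR adjusted p = 0.00173) but no line did alone (adjusted p = 0.139, 0.178 and 0.374).

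Of 40 other receptor tyrosine kinases tested, 4 were higher and 8 lower with siNRP1#3 (30%, beside 21.3% of all genes), 9 higher and 3 lower with siNRP1#5 (30%, beside 30.3%), 0 higher and 8 lower with shNRP1#3 (20%, beside 5.91%), and 5 higher and 4 lower with shNRP1#5 (22.5%, beside 15.5%). The averages of EPHB3, an ephrin-B receptor, were lower with siNRP1#3 (-1.50 ± 0.39, edgeR adjusted p = 0.00431) and shNRP1#3 (-1.36 ± 0.347, edgeR adjusted p = 0.0116) and higher with siNRP1#5 (2.74 ± 0.331, edgeR adjusted p = 2.97e-08) and shNRP1#5 (1.59 ± 0.305, edgeR adjusted p = 0.000275). Line by line, EPHB3 passed with siNRP1#3 in MDA-MB-231 (-1.58, 0.00282), with siNRP1#5 in MDA-MB-231 (2.80, 1.22e-06) and SUM159PT (4.90, 0.00308) and with shNRP1#5 in SUM159PT (4.15, 0.0077), and in no other of the 12 comparisons. In SUM159PT siNT had 0.1067 ± 0.0321 TPM, near the floor. Its siNRP1#5 group had 2.245 ± 2.78 TPM (SD, n = 2), so its 2 libraries lay far apart. In MDA-MB-231 EPHB3 had 0.34 ± 0.149 TPM in siNT and 0.1133 ± 0.0416 in siNRP1#3. TIE1, an orphan receptor of endothelial cells, was lower on average with shNRP1#3 (-3.29 ± 0.391, edgeR adjusted p = 1.37e-07), passing in SUM159PT (-4.40, 0.0114) and MDA-MB-231 (-1.39, 0.035) and standing at -4.07 (0.0582) in HS578T. SUM159PT had 0.3467 ± 0.0569 TPM in shNT and 0.06333 ± 0.0709 in shNRP1#3, both near the floor. MDA-MB-231 had 1.197 ± 0.0961 and 0.5033 ± 0.294 TPM in these groups. HS578T had 3.67 ± 3.3 TPM in shNT, a wide spread, and 0.265 ± 0.0212 in shNRP1#3 (n = 2). The siNRP1#5 average of TIE1 was higher (1.58 ± 0.302, edgeR adjusted p = 8.25e-05), and MDA-MB-231 was the line that passed (3.12, 1.82e-06). For FLT1, a VEGF receptor whose average passed as higher with shNRP1#5 (edgeR adjusted p = 0.0334), SUM159PT had 5, 2 and 3 estimated reads beside 0 in every shNT library, and the other lines did not pass (MDA-MB-231 at 0.21, adjusted p = 0.644 and HS578T at 1.21, adjusted p = 0.437).

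The siNRP1#5 averages of these lists include the HS578T libraries with MDA-MB-231 transcripts, and in those averages all 4 of CLDN3, CLDN4, CLDN7 and CDH1 passed as higher, with a median log2 fold change of 1.47. Without those libraries 1 of the 4 passed (median 0.66) and 25% of all genes did. The ligands then had 5 higher and 7 lower (48%), and their median log2 fold change went from 0.333 to -0.223. The negative regulators and sheddases had 6 higher and 1 lower (38.9%), the adaptors and effectors 2 and 2 (20%), and the other receptor tyrosine kinases 6 and 3 (22.5%). EPHB3 was then 3.84 and TIE1 2.18, both still past the threshold.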

How the data were processed

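RNA was sequenced as 150 bp read pairs from strand-specific, poly(A)-selected libraries (DNBSEQ-G400). Per the labels, the authors used FastQC 0.11.9, Trim Galore 0.6.5, STAR 2.7.2b and RSEM 1.3.3 on GRCh38, and they deposited expected counts, TPM and isoform percent for genes and transcripts. The expected counts deposited by the authors are not normalised, the deposited TPM are scaled by the authors to one total in every library, and the percent values deposited by the authors are each transcript's share of its gene.

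Here expected counts were rounded and tested with edgeR 4.0.16 (quasi-likelihood, filterByExpr, TMM, robust fit) in R 4.3.3, with 1 model per cell line over its 6 groups and 1 over all 18 groups for averages and differences between lines. P-values were adjusted by Benjamini-Hochberg over all genes tested, with a threshold of 0.05. "edgeR adjusted p" in the text is this value. CPM are scaled by TMM over the 52 libraries. A log2 fold change is followed by its SE. Alternatives were DESeq2 1.42.0 and limma 3.58.1 on log2(TPM + 0.5), other size factors, no filter, only the 2 groups compared, a replicate block, leaving out libraries, and subtracting transcripts of other lines. The scripts were tested on simulated data.

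Members and lists were chosen with earlier results of these data known. Values in every library are given for calls and for groups that do not overlap, and from each list at most 4 genes with the largest average effect are named. A gene that this rule names is not reported here. For the pairing check, same-numbered libraries of a knockdown and its control were correlated after centring (34 pairs, r from −0.442 to 0.761). In 5 of 12 comparisons all 3 pairs were over 0.1, and those were taken as paired. No 2 libraries agreed within sampling noise (lowest chi-square per degree of freedom 10.97). Gene positions come from a GENCODE annotation of GRCh38 and promoter windows from RefSeq GRCh38.p14.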

Additional observations from a re-analysis of the deposited data

Results flagged for a closer look

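Effects of the same treatment differed between cell lines for 3 receptors, by edgeR's quasi-likelihood test of the difference. For IGF1R this was so with siNRP1#5 (adjusted p = 7.42e-05) and with siNRP1#3 (adjusted p = 0.0449). The log2 fold changes with siNRP1#5 were -1.06 (SUM159PT), -0.33 (MDA-MB-231) and 1.04 (HS578T), and with siNRP1#3 -0.86, -0.76 and 0.30. For EPHA2 it was so with siNRP1#5 (adjusted p = 0.03), with -0.69, -1.12 and 0.22 in the same order. Without the HS578T siNRP1#5 libraries, which hold MDA-MB-231 transcripts, the siNRP1#5 tests stood at adjusted p = 0.31 (IGF1R) and 0.679 (EPHA2). Those libraries do not enter the siNRP1#3 effects. With other lines subtracted, the siNRP1#3 test of IGF1R stood at adjusted p = 0.259. Without the libraries over 5% of another line, among them HS578T siNRP1#3 replicate 3, the siNRP1#3 effect on IGF1R in HS578T was -0.086. For PDGFRA it was so with shNRP1#3 (adjusted p = 0.00426), and leaving out MDA-MB-231 shNRP1#3 replicate 3 gave 0.581.

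Effects of sequence #5 differed between the siRNA and the shRNA arm in MDA-MB-231 for MET (edgeR adjusted p = 1.68e-05), EPHA2 (0.0015) and PDGFRB (0.0149). MET changed by 1.77 with siNRP1#5 and -0.09 with shNRP1#5, EPHA2 by -1.12 and -0.041, and PDGFRB by 0.70 and -0.88. EPHA2 stood at adjusted p = 0.0758 without replicate 1 of every group, and PDGFRB at 0.172 without replicate 2. NRP1 was reduced further in the siRNA arm (-4.88 against -1.05). Its part in these differences was not tested.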

How the results depend on the processing

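Of the 23 knockdown calls, 23 were kept with DESeq2's size factors, with DESeq2's Wald test and with the replicate block, 22 without the filter and with other lines subtracted, 21 with subtraction at the level of the same treatment, 17 with only the 2 groups compared and 14 on TPM with limma. The cause of the calls lost on TPM was not tested. The total of 23 became 37 without the filter, 35 with DESeq2, 14 at adjusted p 0.01 and 14 to 30 with libraries left out. The 17 calls of the averages over lines ranged from 11 to 18 with libraries left out. The 4 differences between lines became 9 without the filter, 7 with the replicate block, 1 with other lines subtracted, 2 with subtraction at the level of the same treatment, 1 without the HS578T siNRP1#5 libraries and 1 to 3 with libraries left out. The 21 calls between lines ranged from 16 to 21, the 8 between controls from 2 to 10, and the 20 between sequences from 7 to 21, with 10 on TPM. The 3 between arms became 5 without the filter and 2 to 4 with libraries left out. PDGFRA with siNRP1#3, averaged over lines, reversed to 0.85 with subtraction at the level of the same treatment, IGF1R in MDA-MB-231 siNRP1#5 against siNRP1#3 reversed to −0.007 on TPM, and IRS2 with siNRP1#5, averaged over lines, reversed to −0.346 without the HS578T siNRP1#5 libraries. The added settings (subtraction at treatment level, and leaving out the libraries over 5% or MDA-MB-231 shNRP1#3 replicate 3, and every alternative for the pathway lists) were chosen after seeing the data. Where numbers do not pair the libraries, the replicate block added calls for EPHA2 in SUM159PT siNRP1#5, PDGFRB in MDA-MB-231 shNRP1#5 and ERBB3 in HS578T siNRP1#3. Depth limits ERBB3 in SUM159PT and PDGFRA in MDA-MB-231.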

Other observations

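Some genes followed a receptor closely over the 52 libraries. The measure was Pearson's r of log2(CPM + 0.5) after centring within each cell line. The libraries of a treatment share their arm, so these values describe the data only. PDGFRB was most like PLXND1, a plexin receptor for semaphorins, at 0.895, followed by RCOR2 and ZBTB46 at 0.849. EGFR was most like TEX2 (0.871) and CREBBP, a histone acetyltransferase (0.857). MET was most like ELOA, a subunit of elongin (0.837), and PPP2R1B, a scaffold subunit of the phosphatase PP2A (0.824). IGF1R was close to TENT5C at 0.831. For ERBB3 a fellow member came second, ERBB2 at 0.71, just after CACNB3 at 0.715. For PDGFRA the nearest, the transcription factor TBX3, reached 0.716.

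The replicate block moved MET between lines: in that fit MET was lower in HS578T than in SUM159PT (−0.64, edgeR adjusted p = 0.00766) and than in MDA-MB-231 (−0.65, 0.005), where the fit without it gave −0.26 and −0.16.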
